A study of Mus musculus with 18 samples.

Results

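The 10 genes *Psca*, *Dcdc2a*, *Gm2115*, *Ucp2*, *Anpep*, *Man1a*, *Fam171a2*, *Spns2*, *Pcp4l1* and *Rph3a* were followed through microdissected segments of the mouse thick ascending limb (TAL), part of the loop of Henle, with or without deletion of *Cldn10*. They were chosen by their measured levels, as genes high in the medullary segment of knock-out mice relative to 1 or more of the other 3 groups, so their height in that segment is given as a description and was not tested. They are 10 of the 55401 genes in the deposited tables and 10 of the 12586 genes that reached 3 CPM (read counts scaled to a common library size) in at least 3 of the 18 pools. *Psca* passed this filter only through the knock-out pools, since no WT pool reached 3 CPM, and *Fam171a2* reached it in 2 of the 10 WT pools.

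Wild type (WT) mice were *Cldn10* fl/fl littermates without Cre, and conditional knock-out (cKO) mice were *Cldn10* fl/fl; Ksp-Cre, in which the Ksp-cadherin promoter drives Cre in the distal nephron and deletion is incomplete. Controls thus carried the floxed alleles too. All were adult male mice labelled C57BL/6J, between 4 and 10 months old. Each pool held 150 to 200 tubule fragments of 1 mouse, either cortical (CTAL) or medullary (MTAL, dissected from the inner stripe), which gave 5 WT CTAL, 5 WT MTAL, 5 cKO CTAL and 3 cKO MTAL pools. The study reports that kidney calcification hampered the isolation of cKO MTAL. It left out 2 further cKO MTAL pools after quality control, and 1 cKO CTAL pool whose *Cldn10* was near the WT CTAL level. These pools were not analysed here. Poly-A RNA was sequenced, and levels are given as CPM on TMM-normalized library sizes for 1 gene across pools, or as TPM, which also take transcript length into account, between genes.

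The TAL reabsorbs sodium chloride through the transcellular route and, through tight junctions, sodium, calcium and magnesium. Claudin-10b, encoded by *Cldn10*, forms the sodium-selective tight junction pore and is most abundant in the MTAL. The genes described here encode proteins of other compartments: a cell surface anchor (*Psca*), an ectopeptidase (*Anpep*), a lipid exporter (*Spns2*), a microtubule and cilium protein (*Dcdc2a*), a mitochondrial carrier (*Ucp2*), a Golgi enzyme (*Man1a*), a small relative of a calmodulin regulator (*Pcp4l1*) and an effector of vesicle docking (*Rph3a*).

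Pools held between 10824299 and 62339939 estimated counts, and the 3 cKO MTAL pools between 13275232 and 19608753. *Cldn10* was lower in cKO CTAL than in WT CTAL, with a log2 fold change of -1.55 (SE 0.11, adjusted p = 5.57e-06 in edgeR's quasi-likelihood test), and lay between 152 and 297 CPM in cKO MTAL against 656 to 814 CPM in WT MTAL. The study kept cKO pools by their low *Cldn10* level, so the choice of pools favoured these differences. The 10 TAL markers summed to at least 52487 CPM in every pool, with *Slc12a1* and *Umod* among the most abundant. The labels of WT CTAL pool 1 disagree with each other on its genotype. It held 448 CPM of *Cldn10*, within the range of the other WT CTAL pools, and was kept as WT. All 18 pools held RNA of 4 Y-linked genes, while 7 pools also held *Xist* at 6.52 to 8.80 CPM, namely 4 of 5 WT MTAL, 2 of 5 WT CTAL, 1 of 5 cKO CTAL and 0 of 3 cKO MTAL pools. The other pools had at most 0.742 CPM of *Xist*.

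The genes did not share 1 pattern. *Psca* stayed under 4 CPM in every pool outside cKO MTAL. *Dcdc2a*, *Gm2115*, *Spns2* and *Pcp4l1* had higher means in both knock-out segments than in the WT segments, highest in the medullary one, and *Ucp2* followed with a smaller difference. Every knock-out pool exceeded every WT pool for *Gm2115* and *Pcp4l1*, whereas cKO CTAL overlapped WT MTAL for *Dcdc2a* and *Spns2*. *Rph3a* was as high in WT MTAL as in cKO MTAL and thus was not new to the knock-out segment. *Anpep*, *Man1a* and *Fam171a2* were highest in cKO MTAL and overlapped the WT levels in cKO CTAL.

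**Figure D1:**
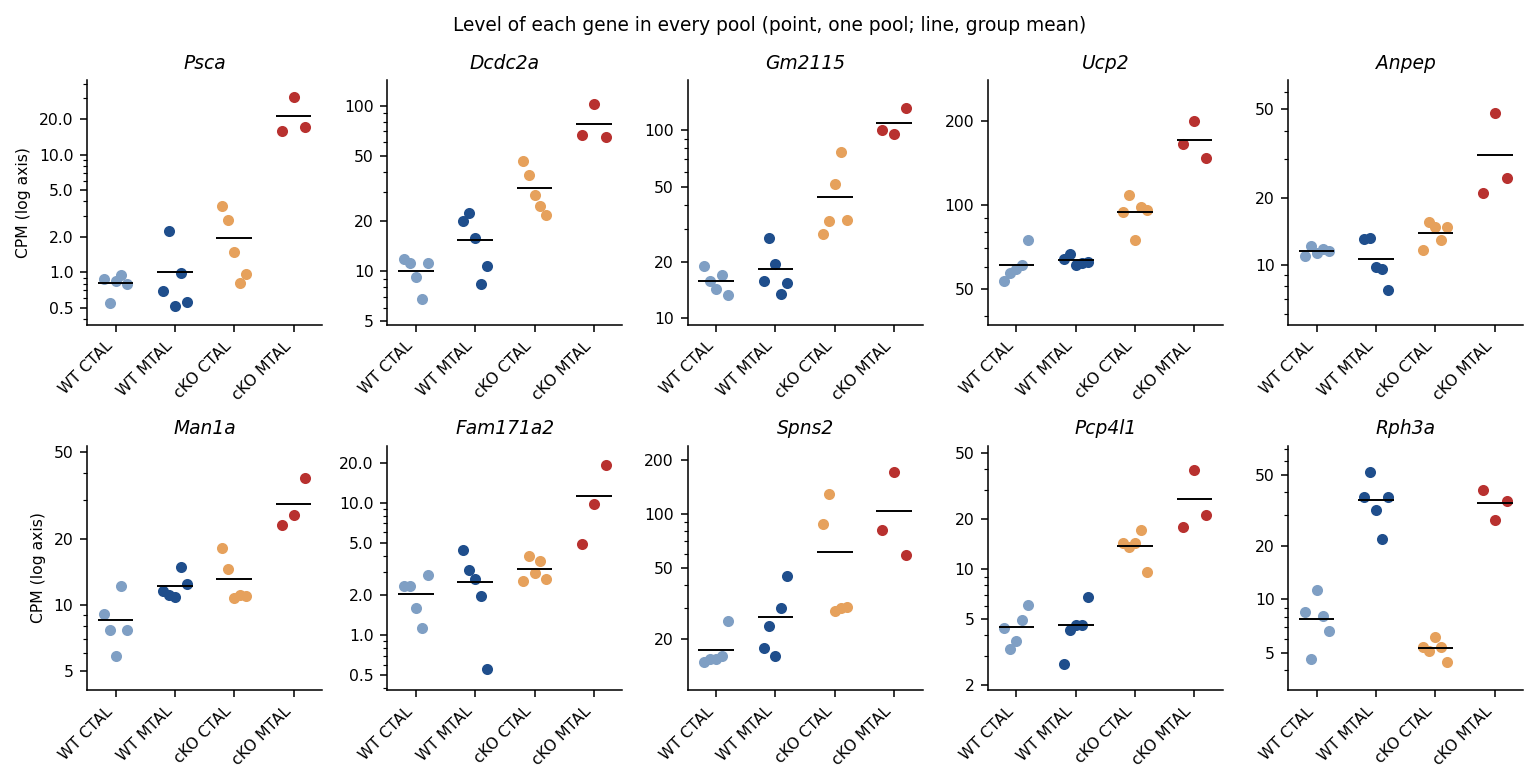
CPM (log axis) of the 10 genes in each of the 18 pools, by group, with 1 point per pool and a line at the group mean. All 3 cKO MTAL pools lie above all 10 WT pools for 9 of the genes, and *Rph3a* is as high in WT MTAL as in cKO MTAL.

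Every cKO MTAL pool lay above all 10 WT pools for 9 of the 10 genes, the exception being *Rph3a*. Over all genes with 3 CPM in at least 3 pools, 2.30% did so. Every cKO MTAL pool also lay above all 15 other pools for 8 genes, the exceptions being *Rph3a* and *Spns2*, against 0.802% of all genes. Since the genes were selected on these contrasts, these shares are a description of the choice. The margin was narrow for *Pcp4l1*, whose lowest cKO MTAL pool was 1.04 times the highest other pool, and for *Fam171a2*, with 1.11 times, whereas for *Psca* it was 4.35 times. Taken 1 group at a time, cKO MTAL did not overlap WT MTAL for 9 genes (6.91% of all genes lay higher without overlap), WT CTAL for 10 genes (5.52%) or cKO CTAL for 9 genes (4.27%). The median log2 fold change of the 10 genes was 2.07 against WT MTAL, 2.49 against WT CTAL and 1.25 against cKO CTAL, while the median over all genes was 0.00, 0.01 and 0.03. These 3 comparisons share the cKO MTAL pools. Without cKO MTAL pool 18 the first median was 1.41 and without pool 20 it was 1.71, in each case over the 9 genes other than *Psca*, which no longer reached 3 CPM in 3 pools. Without pool 18 the values of *Spns2* and *Anpep* also fell, to 1.41 and 1.10.

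*Psca* (ENSMUSG00000022598.6, chr15:74714839-74717069, plus strand, GRCm38) encodes prostate stem cell antigen, a GPI-anchored cell surface protein of the LY6/uPAR family. The cKO MTAL pools 16, 18 and 20 held 15.99, 30.6 and 17.1 CPM. The WT MTAL pools 11, 13, 15, 17 and 19 held 0.696, 2.24, 0.511, 0.987 and 0.553 CPM and the WT CTAL pools 1, 10, 22, 3 and 8 held 0.547, 0.881, 0.838, 0.945 and 0.791 CPM. The cKO MTAL pools lay above both normal segments without overlap, with a log2 fold change of 4.35 (SE 0.46) against WT MTAL and 4.74 (SE 0.31) against WT CTAL. These became 3.85 and 3.93 on the log2(TPM + 1) scale with limma, and the first was 3.25 without the pools with *Xist*, which leaves 1 WT MTAL pool. In cKO CTAL the pools 2, 21, 4, 7 and 9 held 2.78, 3.67, 1.48, 0.815 and 0.958 CPM. Pools 2, 21, 4 and 9 exceeded the highest WT CTAL pool and pool 7 did not, but *Psca* did not reach the filter of 3 CPM in 5 pools and was not tested there. The cKO CTAL mean was 9.14% of the cKO MTAL mean, the smallest such share among the 10 genes. The pools are in the same order below. In TPM, *Psca* was at 35.2 ± 15.6 (SD, n = 3) in cKO MTAL, the highest mean after *Ucp2*, *Spns2* and *Dcdc2a*.

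The urothelium, where *Psca* is known to be expressed, was looked for through 7 of its markers. Their summed level was 3.87 to 11.9 CPM in cKO MTAL, 5.58 to 9.01 CPM in WT MTAL and 4.69 to 11.5 CPM in the CTAL groups. These ranges overlapped between all groups, but the members of the list differed. The uroplakin *Upk1a*, most of the sum in the WT pools, was at 3.64 ± 1.46 CPM (SD, n = 3) in cKO MTAL and 5.35 ± 1.11 CPM (n = 5) in WT MTAL, whereas each of the other 6 markers had its highest group mean in cKO MTAL, from 0.182 CPM for *Upk2* to 1.97 CPM for *Trp63*. Without *Upk1a*, a sum formed after the values were seen, the markers came to 6.29, 7.19 and 1.91 CPM in cKO MTAL pools 16, 18 and 20, at most 3.83 CPM in WT MTAL, and at most 2.27 CPM in the CTAL groups. Pool 18, the highest for *Psca*, also had the most *Upk2* of all pools, 0.546 CPM, while *Upk2* was at 0 CPM in pools 16 and 20. The part of these markers in the *Psca* level was not tested.

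*Anpep* (ENSMUSG00000039062.15, chr7:79821803-79861059, minus strand) encodes aminopeptidase N, an enzyme of the proximal tubule brush border that trims peptides at the cell surface. Its cKO MTAL pools held 21.03, 48.2 and 24.4 CPM against 7.70 to 13.2 CPM in WT MTAL and 10.9 to 12.1 CPM in WT CTAL. The log2 fold change was 1.56 (SE 0.28) against WT MTAL, and 1.10 without pool 18. The sum of 10 proximal tubule markers was higher in the same group, at 117, 265 and 218 CPM in cKO MTAL pools 16, 18 and 20 and 56.0 to 85.8 CPM in WT MTAL. WT CTAL pool 22 held 190 CPM of those markers with *Anpep* at 11.3 CPM, and cKO CTAL pool 2 held 241 CPM with *Anpep* at 15.6 CPM. *Slc34a1*, the proximal tubule phosphate transporter, was at 5.92, 22.1 and 31.8 CPM in cKO MTAL pools 16, 18 and 20. It spanned 1.51 to 6.56 CPM in WT MTAL and 3.40 to 26.0 CPM in WT CTAL, so pool 16 lay within both WT ranges. The marker with the highest mean in cKO MTAL was *Slc27a2*, at 82.1 CPM against 27.3 CPM in WT MTAL. The part of these markers in the *Anpep* level was not tested. In pools of tubules, more cells of a type and more RNA per cell cannot be told apart.

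*Spns2* (ENSMUSG00000040447.15, chr11:72451638-72489904, minus strand) encodes a transporter that exports sphingosine 1-phosphate. The cKO MTAL pools held 81.6, 171 and 58.7 CPM and the WT MTAL pools 17.9, 23.6, 16.1, 29.8 and 45.2 CPM. In CTAL, the knock-out pools 2, 21, 4, 7 and 9 held 129, 87.8, 28.8, 29.96 and 30.3 CPM and the WT pools 1, 10, 22, 3 and 8 held 15.4, 14.9, 15.5, 16.2 and 25.1 CPM. Both knock-out segments thus lay above their WT counterpart without overlap, but the knock-out pools spread widely among themselves, and the 2 knock-out groups overlapped. The tubular injury list (10 genes including *Havcr1*, *Lcn2* and *Spp1*) was highest in the same pools: its sum was 8534 CPM in cKO MTAL pool 18, 4709 CPM in cKO CTAL pool 2 and 2847 CPM in cKO CTAL pool 21, against 1250 to 1836 CPM in the 10 WT pools. Most of that sum was *Spp1* (osteopontin), and *Lcn2* reached 283 CPM in cKO MTAL pool 18 and 85.0 CPM in cKO CTAL pool 2. The other knock-out pools also had injury sums above all WT pools. They were at 2393 and 2315 CPM in cKO MTAL pools 16 and 20, and 1907, 2126 and 2229 CPM in cKO CTAL pools 4, 7 and 9. At similar sums, *Spns2* was at 30.3 CPM in cKO CTAL pool 9 and at 58.7 and 81.6 CPM in cKO MTAL pools 20 and 16. Whether *Spns2* and the injury genes share a source was not tested.

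*Dcdc2a* (ENSMUSG00000035910.15, chr13:25056004-25210706, plus strand) encodes a doublecortin domain protein that binds microtubules and is found in the primary cilium. It stood at 66.4, 102 and 65.0 CPM in cKO MTAL, and at 20.1, 22.5, 15.8, 8.40 and 10.8 CPM in WT MTAL. It stood at 38.0, 46.5, 28.9, 24.7 and 21.8 CPM in cKO CTAL pools 2, 21, 4, 7 and 9, and at 11.3, 11.9, 9.29, 6.81 and 11.2 CPM in WT CTAL. The order of the means was cKO MTAL, cKO CTAL, WT MTAL and WT CTAL, with no overlap between cKO MTAL and any other group. In TPM the separation in CTAL was incomplete: cKO CTAL pool 2 held 9.08 TPM and WT CTAL pool 10 held 9.10 TPM. The TPM obtained per CPM varied 4.39 fold between pools for this gene, the most of the 10, which has 4 annotated transcripts.

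*Ucp2* (ENSMUSG00000033685.13, chr7:100493337-100502020, plus strand) encodes uncoupling protein 2, a carrier of the inner mitochondrial membrane. It was the most abundant of the 10 genes in every group, with 150 ± 34 TPM (SD, n = 3) in cKO MTAL, 93.7 ± 13.6 (n = 5) in cKO CTAL, 56.0 ± 7.2 (n = 5) in WT MTAL and 56.2 ± 10.6 (n = 5) in WT CTAL. In CPM the cKO MTAL pools held 165, 200.0 and 147 and the 10 WT pools 53.3 to 74.8. The WT segments overlapped fully, and the cKO CTAL mean of 94.3 CPM lay between them and cKO MTAL.

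*Man1a* (ENSMUSG00000003746.16, chr10:53904785-54076609, minus strand) encodes a Golgi alpha-mannosidase that trims N-linked glycans. Its cKO MTAL pools held 23.0, 25.5 and 38.0 CPM, the WT MTAL pools 10.9 to 14.9 CPM, the cKO CTAL pools 10.7 to 18.2 CPM and the WT CTAL pools 5.83 to 12.2 CPM. The log2 fold change of cKO MTAL was 1.25 (SE 0.22) against WT MTAL, the smallest of the 9 genes that lay above it.

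*Pcp4l1* (ENSMUSG00000038370.6, chr1:171173262-171196268, minus strand) encodes a small protein related to the calmodulin regulator PCP4. The cKO MTAL pools held 17.99, 39.7 and 21.4 CPM and the cKO CTAL pools 2, 21, 4, 7 and 9 held 13.5, 14.4, 14.4, 17.3 and 9.68 CPM. The WT MTAL pools held 2.67, 4.32, 4.60, 4.61 and 6.79 CPM and the WT CTAL pools 3.32, 4.44, 3.69, 4.92 and 6.08 CPM. Every one of the 8 knock-out pools was above every one of the 10 WT pools.

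*Gm2115* (ENSMUSG00000097789.2, chr7:84528954-84583531, plus strand) is a predicted gene that the annotation lists as protein coding. It showed the same separation, with 99.8, 95.7 and 132 CPM in cKO MTAL and 32.9, 28.2, 51.6, 76.1 and 33.2 CPM in cKO CTAL pools 2, 21, 4, 7 and 9. The WT MTAL pools held 15.9, 26.8, 19.4, 13.5 and 15.4 CPM and the WT CTAL pools 15.9, 19.04, 14.3, 17.02 and 13.3 CPM. The highest cKO CTAL pool was pool 7, which for *Spns2* and *Dcdc2a* was among the lower ones.

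*Fam171a2* (ENSMUSG00000034685.4, chr11:102436981-102447682, minus strand), which encodes a membrane protein, was the least abundant gene in cKO MTAL. Its pools there spread from 4.89 CPM in pool 16 through 9.87 CPM in pool 18 to 19.3 CPM in pool 20, against 0.553 to 4.41 CPM in WT MTAL, 1.13 to 2.85 CPM in WT CTAL and 2.57 to 3.98 CPM in cKO CTAL. Pool 16 held 66 estimated counts of the gene, while WT MTAL pool 11, the highest of the WT pools, held 76 in a deeper library. The log2 fold change of 2.17 against WT MTAL had the largest SE of the 10 genes, 0.53. It was 1.55 without pool 20 and 1.39 with the deposited TPM in limma. Pool 20 also had the highest sums of 7 principal cell markers, 1010 CPM with *Aqp2* at 554 CPM, and of 6 intercalated cell markers, 251 CPM, compared with 118 and 125 CPM of principal cell markers in the other cKO MTAL pools. WT MTAL pool 11 had the next highest principal cell sum, 333 CPM, and the highest *Fam171a2* level of the WT pools. Other pools with comparable sums held less *Fam171a2*: cKO CTAL pools 9 and 2 held 331 and 314 CPM of these markers with 2.65 and 3.98 CPM of the gene, and WT CTAL pool 3 held 264 CPM with 1.13 CPM. Pool 18 had 118 CPM of the markers with 9.87 CPM of the gene. Whether collecting duct RNA contributes to *Fam171a2* was not tested. Against cKO CTAL the log2 fold change was 1.89, 1.25 without pool 20, and 0.97 with limma on TPM. The gene overlaps *Grn* on the opposite strand, and whether reads were assigned by strand is not given in the sources used here.

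**Figure D2:**
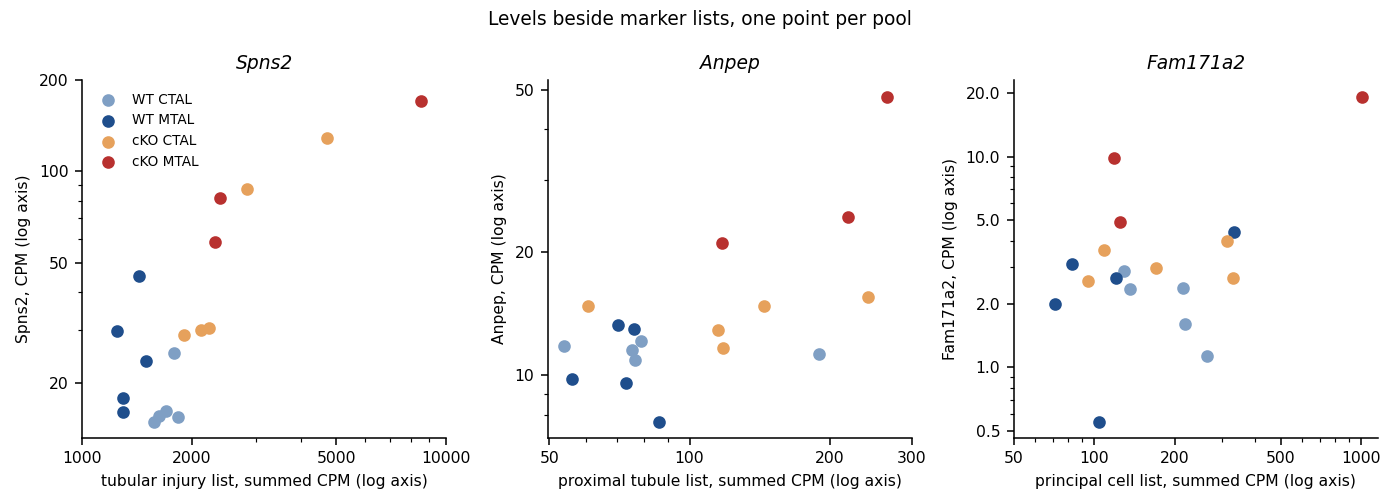
Levels of *Spns2*, *Anpep* and *Fam171a2* (CPM, log axis) against the summed CPM (log axis) of the tubular injury, proximal tubule and principal cell lists, with 1 point per pool coloured by group. The highest *Spns2* pools are the highest for the injury list, and 1 cKO MTAL pool stands apart at 1010 CPM of principal cell markers and 19.3 CPM of *Fam171a2*.

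*Rph3a* (ENSMUSG00000029608.10, chr5:120940499-121010092, minus strand) encodes rabphilin 3A, an effector of the small GTPases RAB3 and RAB27 in vesicle docking. It was at 41.2, 28.1 and 35.7 CPM in cKO MTAL and at 37.6, 52.3, 31.7, 21.7 and 37.7 CPM in WT MTAL. In CTAL it was at 5.14, 5.39, 6.15, 5.40 and 4.42 CPM in cKO pools 2, 21, 4, 7 and 9, and at 4.61, 8.47, 11.3, 8.04 and 6.63 CPM in WT pools 1, 10, 22, 3 and 8. The 2 medullary groups overlapped, as did the 2 cortical groups, and every medullary pool exceeded every cortical pool. Its log2 fold change was 2.17 (SE 0.25) between cKO MTAL and WT CTAL and 2.76 (SE 0.18) between cKO MTAL and cKO CTAL, but -0.05 (SE 0.23) between cKO MTAL and WT MTAL, where it ranged from -0.18 to 0.13 with 1 pool left out.

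The genotype effect in the cortical segment was not itself a contrast of the choice, but the pools of both cortical groups served as comparators. Choosing genes that are low in either group can shift this difference. The calls and shares below are therefore not independent of the choice. The 4 genes *Dcdc2a*, *Gm2115*, *Spns2* and *Pcp4l1* were higher in cKO CTAL than in WT CTAL where a call needed an adjusted p below 0.05 and at least 1 on the log2 scale (edgeR's quasi-likelihood test, Benjamini-Hochberg over 11702 genes). They were 4 of the 8 genes that could be tested, where 0.256% of all genes were called higher, and 0 of the 8 were called lower, where 0.214% of all genes were. Scaled to total counts only, 36 of 55 called genes were higher instead of 30 of 55, and the same number of the 8 was called. All 5 cKO CTAL pools lay above all 5 WT CTAL pools for the same 4 genes, against 1.86% of all genes. The median log2 fold change of the 8 genes was 1.05, and that of all genes 0.00.

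*Dcdc2a* was 3.101 fold higher in cKO CTAL (log2 fold change 1.63, SE 0.21, adjusted p = 0.00100 by edgeR). *Pcp4l1* was 3.05 fold higher (1.61, SE 0.20, adjusted p = 0.00109) and *Gm2115* 2.77 fold higher (1.47, SE 0.23, adjusted p = 0.00555). These 3 calls held when any 1 pool was left out, with adjusted p of at most 0.00575 for *Dcdc2a*, 0.00521 for *Pcp4l1* and 0.0247 for *Gm2115*. *Spns2* had the largest difference, 3.46 fold (1.79, SE 0.39), with an adjusted p of 0.0348. Its call was lost without any 1 of cKO CTAL pools 21 or 2 or WT CTAL pools 10, 1, 22 or 3 (edgeR adjusted p from 0.0579 to 0.104), and without cKO CTAL pool 2 the log2 fold change was 1.32. Without the 3 pools with *Xist* in this comparison, *Dcdc2a* and *Pcp4l1* were called, and *Gm2115* (adjusted p = 0.0646 by edgeR) and *Spns2* (adjusted p = 0.313) were not. With the deposited TPM in limma, *Gm2115* and *Pcp4l1* were called, and *Dcdc2a* (adjusted p = 0.0727) and *Spns2* (adjusted p = 0.0883) were not. With WT CTAL pool 1 counted as knock-out, as part of its labels has it, only *Dcdc2a* was called.

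The other 4 tested genes did not meet both thresholds. *Ucp2* had a log2 fold change of 0.62 (SE 0.11, adjusted p = 0.0112 by edgeR), below the fold required, and its lowest cKO CTAL pool was level with the highest WT CTAL pool at 74.8 CPM. *Man1a* had 0.63 (SE 0.21, adjusted p = 0.215), *Anpep* 0.27 (SE 0.13, adjusted p = 0.427) and *Rph3a* -0.57 (SE 0.22, adjusted p = 0.304). *Psca* and *Fam171a2* were below the filter.

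**Figure D3:**
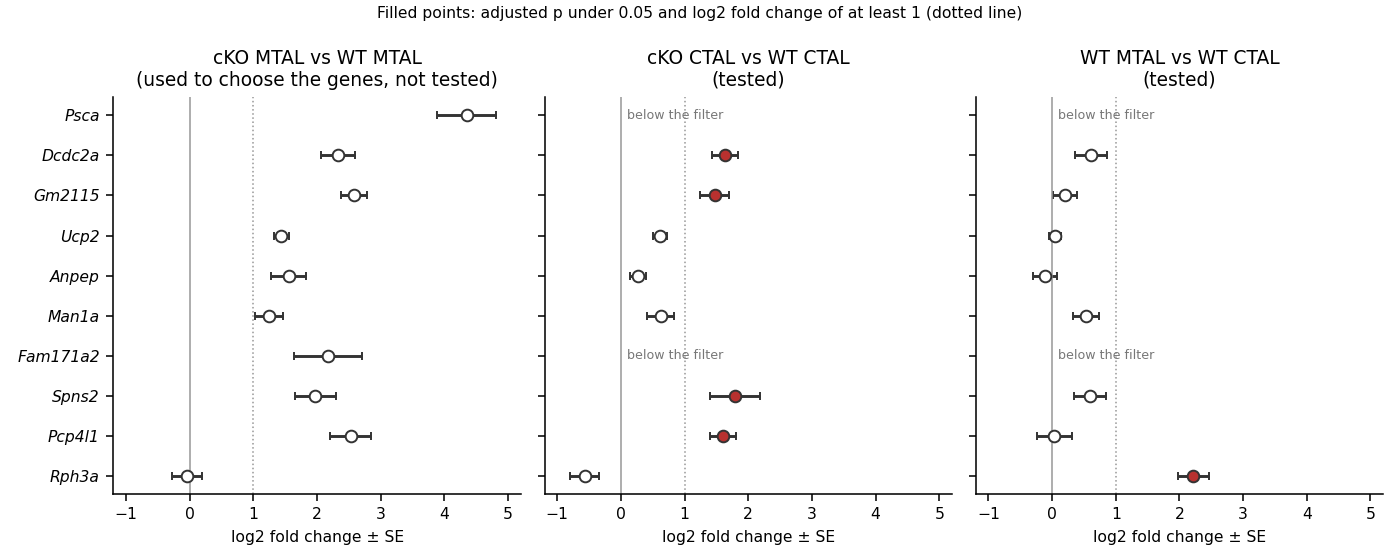
Log2 fold change with its standard error for the 10 genes in cKO MTAL against WT MTAL (used in the choice, no test), cKO CTAL against WT CTAL and WT MTAL against WT CTAL. Filled points pass both thresholds: *Dcdc2a*, *Gm2115*, *Spns2* and *Pcp4l1* in the middle panel and *Rph3a* in the right one.

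Sequences before a RefSeq start of each of these 4 genes are shown because all 4 were called higher in cKO CTAL. The 250 bases before the RefSeq start (GRCm38.p6) were available for 8 of the 10 genes. They are given 5′ to 3′ on the strand of the gene, with matches to any of 5 motifs on either strand in capitals: TATAAA (the TATA box), GGGCGG (the GC box), TGACGTCA (the cAMP response element), GTTAAT (the core of an HNF1 site) and AGGTCA (the core of a nuclear receptor site). The windows are chr13:25055754-25056003 on the plus strand for *Dcdc2a*, chr7:84528724-84528973 on the plus strand for *Gm2115*, chr11:72475028-72475277 on the minus strand for *Spns2* and chr1:171196269-171196518 on the minus strand for *Pcp4l1*. A RefSeq start is not always the outer start of the gene as given above. The *Spns2* window lies inside its gene, and the end of the *Gm2115* window, with its match, overlaps its gene. Those of *Dcdc2a* and *Pcp4l1* end directly before the gene.
Dcdc2a: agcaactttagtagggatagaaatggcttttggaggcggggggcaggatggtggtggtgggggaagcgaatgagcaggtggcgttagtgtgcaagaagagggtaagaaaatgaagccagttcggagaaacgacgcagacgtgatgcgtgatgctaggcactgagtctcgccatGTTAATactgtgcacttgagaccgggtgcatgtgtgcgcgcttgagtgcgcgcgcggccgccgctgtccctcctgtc
Gm2115: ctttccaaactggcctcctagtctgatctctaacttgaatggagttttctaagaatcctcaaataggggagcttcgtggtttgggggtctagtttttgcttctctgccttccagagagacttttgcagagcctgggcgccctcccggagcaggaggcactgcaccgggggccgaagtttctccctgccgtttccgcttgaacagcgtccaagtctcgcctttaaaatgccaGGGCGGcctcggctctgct
Spns2: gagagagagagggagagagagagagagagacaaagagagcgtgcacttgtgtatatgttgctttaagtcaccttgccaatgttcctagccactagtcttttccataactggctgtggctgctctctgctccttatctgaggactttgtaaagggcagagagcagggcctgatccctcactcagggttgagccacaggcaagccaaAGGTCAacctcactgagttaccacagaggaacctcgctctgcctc
Pcp4l1: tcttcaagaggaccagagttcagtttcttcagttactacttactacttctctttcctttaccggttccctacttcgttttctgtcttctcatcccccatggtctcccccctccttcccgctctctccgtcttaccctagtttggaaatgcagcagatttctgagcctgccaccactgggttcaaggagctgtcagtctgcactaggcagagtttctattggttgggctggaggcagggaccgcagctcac

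No motif was common to the 4 windows. GTTAAT began 77 bases before the start of *Dcdc2a* (6.43% of 32851 promoters hold it), GGGCGG 19 bases before that of *Gm2115* (32.7%) and AGGTCA 45 bases before that of *Spns2* (14.0%), whereas the *Pcp4l1* window held none of the 5. TATAAA and TGACGTCA, held by 12.4% and 1.55% of all promoters, were in none of the windows of the 8 genes. GGGCGG was also found in windows of *Ucp2*, *Anpep*, *Man1a* and *Rph3a*. The G and C content of the windows ranged from 48.8% at 1 start of *Rph3a* to 72.8% at *Anpep*, with 51.6% at both *Spns2* and *Pcp4l1* and a median of 52.4% over all promoters. The windows held 18 CpG dinucleotides for *Dcdc2a*, 11 for *Gm2115*, 5 for *Pcp4l1* and 2 for *Spns2*. A match is a run of letters only, and binding at these places was not measured.

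The normal segments differed for 1 of the 8 tested genes, *Rph3a*, which was 4.64 fold higher in WT MTAL than in WT CTAL (log2 fold change 2.21, SE 0.24, adjusted p = 2.29e-05 by edgeR). Over all 11650 genes tested, 0.652% were called higher in WT MTAL and 1.67% lower, and 3.06% lay higher without overlap, as *Rph3a* did. Both normal groups were comparators in the choice of the genes, so this comparison is not independent of it. The call held under all 19 alternatives. The other 7 genes had log2 fold changes between -0.11 (*Anpep*) and 0.61 (*Dcdc2a*), with adjusted p of 0.158 or more by edgeR. The sign of *Pcp4l1*, whose value was 0.03, changed under 5 of the 19 alternatives and that of *Dcdc2a* under 1. Without the pools with *Xist* 1 WT MTAL pool is left, and its spread is taken to be that of the WT CTAL pools. There *Anpep* had 0.19, its only change of sign, and *Dcdc2a* 0.96, below the fold required.

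Within the knock-out groups the genes did not peak in the same pool. Among the cKO MTAL pools, pool 18 was the highest for 6 of the genes (*Psca*, *Dcdc2a*, *Ucp2*, *Anpep*, *Spns2* and *Pcp4l1*), pool 20, the one with the most principal cell RNA, for 3 (*Gm2115*, *Man1a* and *Fam171a2*) and pool 16 for *Rph3a*. Among the cKO CTAL pools, pool 2 was the highest for 4 genes, pool 21 for 3, pool 7 for 2, pool 4 for 1 and pool 9 for 0. Relative to the WT mean of its own segment, *Gm2115* ranged from 1.77 fold in cKO CTAL pool 21 to 4.79 fold in cKO CTAL pool 7, and *Spns2* from 1.65 fold in pool 4 to 7.39 fold in pool 2. *Pcp4l1* was the more even of the cortical genes, from 2.16 to 3.85 fold. Immune cell markers summed to 120 to 147 CPM in cKO MTAL and 94.4 to 142 CPM in WT MTAL, which overlapped, endothelial markers to 156 to 258 CPM against 271 to 425 CPM, fibroblast markers to 56.7 to 73.7 CPM against 39.7 to 56.2 CPM, and thin limb markers to 761 to 823 CPM against 870 to 1110 CPM. Distal convoluted and connecting tubule markers summed to at most 32.3 CPM in cKO MTAL and 14.9 CPM in WT MTAL. Tubular injury markers summed to 2315 to 8534 CPM in cKO MTAL and 1250 to 1496 CPM in WT MTAL, without overlap. The part of other cells or of injury in the levels of the 10 genes was not tested.

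**Figure D4:**
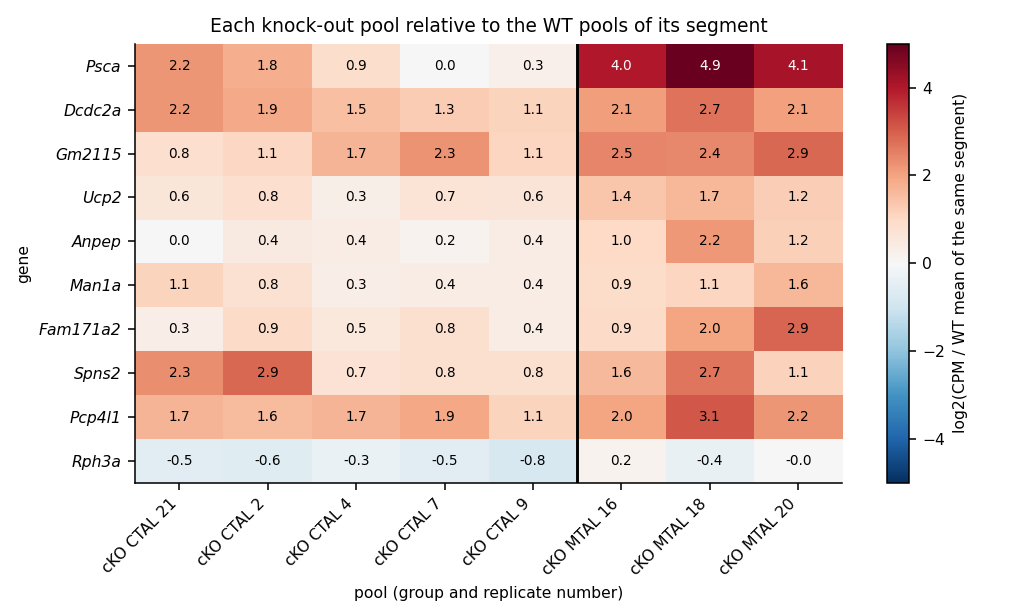
Log2 ratio of each knock-out pool's CPM to the WT mean of the same segment, with genes as rows, pools as columns and a line between the cortical and medullary pools. *Psca* stands at 4.0 to 4.9 in cKO MTAL, *Pcp4l1* and *Dcdc2a* are above 1 in all 8 pools, and *Rph3a* stays near 0 in cKO MTAL.

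Relatives and partners of the 10 genes were grouped in 9 lists of 97 genes in all. Of the 50 that could be tested in cKO CTAL against WT CTAL, 0 were called by edgeR, by DESeq2 or by limma on TPM, and 11 had an unadjusted p under 0.05 in edgeR (22% of the listed genes, against 11.8% of all genes). The doublecortin kinase gene *Dclk3*, a relative of *Dcdc2a*, held 37.6 to 44.3 CPM in cKO CTAL and 53.8 to 68.4 CPM in WT CTAL, with a log2 fold change of -0.58 (SE 0.09, adjusted p = 0.00450 by edgeR) that was under the fold required. *S1pr1*, a receptor for the lipid that SPNS2 exports, had -0.90 (SE 0.22, adjusted p = 0.0672), and *Spns1*, a relative of *Spns2*, -0.03. *Unc13b*, a vesicle priming gene listed with *Rph3a*, had 0.48 (SE 0.08, adjusted p = 0.0126).

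Between the normal segments 51 of the listed genes were tested, 0 were called higher and 3 lower in WT MTAL, where 0.652% and 1.67% of all genes were. Among these were *Ggt1* (gamma-glutamyltransferase, log2 fold change -1.97, adjusted p = 9.32e-07 by edgeR) and *Ly6c1* (a LY6 family gene, -1.01, adjusted p = 5.25e-06). *Ggt1* belongs to the membrane peptidases, like *Anpep*. Of 12 listed, 9 could be compared between cKO MTAL and WT MTAL, with a median log2 fold change of 0.78, where *Ggt1* was at 228 to 403 CPM against 61.4 to 123 CPM. *Ggt1* was thus called between the normal segments, whereas *Anpep*, with a log2 fold change of -0.11 there, was not. The cKO MTAL range of *Ggt1* overlapped that of WT CTAL (280 to 411 CPM). The N-glycan trimming list of *Man1a* had a median of 0.07 in the same comparison and the sphingosine 1-phosphate list of *Spns2* one of -0.08. Of the LY6/uPAR list of *Psca*, 6 of 19 genes passed the filter, with a median of 0.29. The mitochondrial carriers related to *Ucp2* had a median of 0.19 over 5 genes, the calmodulin genes listed with *Pcp4l1* 0.09 over 3 and the effectors listed with *Rph3a* 0.01 over 9, while *Fam171a1*, the relative of *Fam171a2*, had 0.65 and the 2 doublecortin genes a median of -0.45.

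The genes whose levels ran most like each member's over the 18 pools were in part other members. By Pearson's r of log2(CPM + 1) against the other 12585 genes, *Ucp2* led for *Psca* (0.90) and *Dcdc2a* (0.91), *Pcp4l1* for *Ucp2* (0.91), and *Psca* for *Man1a* (0.85). Outside the 10 genes, *Pcp4l1* ran with *Pcdh1*, a protocadherin (0.94), *Spns2* with *Samd5* (0.91), *Anpep* with *Serinc2* (0.92), *Gm2115* with *Defb42*, a beta-defensin (0.90), and *Fam171a2* with *Gm42793* (0.84). *Rph3a* ran with *Slc6a12*, the betaine transporter (0.95), which had 25.2 CPM in WT MTAL, 15.2 in cKO MTAL, 4.58 in WT CTAL and 3.23 in cKO CTAL on average, and with *Litaf* (0.95). These values describe pools that share groups, depth and makeup. The likeness between members also follows in part from their choice as genes high in cKO MTAL.

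The neighbours of the 10 genes on the chromosome were compared in the same way. Among the 20 nearest genes with 3 CPM in at least 3 pools, 1 on each side, the log2 fold change of cKO MTAL against WT MTAL had a median of 0.09 over the 19 that passed the filter of that comparison. In cKO CTAL against WT CTAL the neighbours ranged from -0.18 to 0.40. *Fah*, 1628 bases from *Gm2115*, had 0.04 in MTAL and -0.12 in CTAL, and *Them6*, 4135 bases from *Psca*, had 0.61 (SE 0.38) in MTAL.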

How the data were processed

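RNA of 18 pools of microdissected tubules was sequenced by the authors (poly-A, strand-specific, paired-end). Per the study's methods and the submitters' processing notes, reads were trimmed, aligned and counted with DRAGEN on mm10. The deposited values are estimated counts per gene, not normalized, and the TPM that the authors computed. Here the estimated counts were rounded, scaled with TMM and tested with edgeR's quasi-likelihood test (R 4.3.3, edgeR 4.0.16) over genes with 3 CPM in at least 5 pools (3 pools where cKO MTAL entered), with Benjamini-Hochberg adjustment. A call needed an adjusted p below 0.05 and a change of at least 1 on the log2 scale in either direction. limma (3.58.1, on log2(TPM + 1)) and DESeq2 (1.42.0) were alternatives. The 10 genes and all gene lists were chosen with earlier results of these data known. All 10 genes are named, with partner genes called or having at least 10 CPM in every pool, the 2 most alike genes and the nearest neighbours of each, and *S1pr1*, *Upk1a*, *Upk2* and *Trp63* as examples chosen after their values were seen. Some genes that this rule names are not reported here. Coordinates come from GENCODE (GRCm38), which held 99.5% of the identifiers, and upstream sequences from RefSeq. Fits were tested on simulated data. Each pool came from a separate mouse. Depth limits the rarer genes: *Psca* in WT rested on 10 to 106 counts per pool.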

Additional observations from a re-analysis of the deposited data

Results flagged for a closer look

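*Psca* in WT MTAL pool 13 was at 2.24 CPM, 1 of 2 values that stood apart from their group by Dixon's criterion, with the next WT MTAL pool at 0.987 CPM. Without that pool the log2 fold change of cKO MTAL against WT MTAL was 4.90 instead of 4.35.

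*Spns2* in WT CTAL pool 8 was at 25.1 CPM, and the next WT CTAL pool at 16.2 CPM. Without it *Spns2* was still called in cKO CTAL, with an adjusted p of 0.0369 in edgeR's quasi-likelihood test. Of 30 groups tested 2 stood apart, and chance flags about 1 in 20.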

How the results depend on the processing

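In cKO CTAL against WT CTAL 4 of the 10 genes were called. The count was 2 with limma on TPM, 2 without the pools with *Xist* (added once the data had been seen) and 1 with WT CTAL pool 1 counted as cKO CTAL, and 3 or 4 with 1 pool left out. Over all genes 55 were called, against 19 without the pools with *Xist* and 36 without cKO CTAL pool 2. In WT MTAL against WT CTAL, where neither gene was called, *Dcdc2a* turned to -0.074 with limma on TPM. There *Pcp4l1* turned to -0.038 with limma on TPM and -0.13 without the pools with *Xist*, and ranged from -0.14 to 0.18 with 1 pool left out. *Anpep* turned to 0.19 without the pools with *Xist*, which leaves 1 WT MTAL pool there. The median log2 fold change of cKO MTAL against WT MTAL (2.07) ranged from 1.41 to 2.13 with 1 pool left out, and was 1.83 without the pools with *Xist*, which leaves 1 WT MTAL pool. That of cKO MTAL against WT CTAL (2.49) was 2.09 with limma on TPM and ranged from 2.07 to 2.64 with 1 pool left out. Among single genes in the 2 tested comparisons, 292 values kept direction and side of the threshold, 13 lost the threshold and 7 changed sign. In the other 3 comparisons 421 moved by less than the spread between pools and 20 by more. The sign changed only for *Rph3a* in cKO MTAL against WT MTAL (-0.05), under 4 of 15 alternatives, with values from 0.013 to 0.13. Except for the smaller sets of pools, where fewer pools enter, the cause was not tested. No paired analysis was possible because the groups share no replicate numbers. With 3 cKO MTAL pools and at most 2.24 and 4.41 CPM in WT, the size of the *Psca* and *Fam171a2* differences is the least certain.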
